A study of Mus musculus with 16 samples.

Results

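Apold1 and 9 other genes of endothelial cells were followed in uORF-TAA mice, which carry 2 copies of an altered Ppargc1a allele, and in their wild-type littermates. The 10 genes are Apold1, Cldn5, Cdh5, Pecam1, Esam, Tie1, Tek, Emcn, Egfl7 and Sox17, and all 10 were found among the 16882 genes listed in both tissues. Apold1 was chosen on its adjusted p in brown fat, and the other 9 are genes by which endothelial cells are recognised, put beside it when results of both tissues were already known. The genotype values of Apold1 in brown fat are therefore a description and support nothing by themselves.

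The uORF-TAA homozygotes and the wild-type mice were C57BL/6 males, 10 weeks old and housed at room temperature. Quadriceps muscle and brown adipose tissue were taken, with 4 libraries of each genotype in each tissue and 16 in all. Ppargc1a encodes PGC-1alpha, a coactivator of mitochondrial and thermogenic genes, uORF means upstream open reading frame, and TAA reads as a stop codon. Both tissues are whole organs, so fewer endothelial cells and less RNA per endothelial cell cannot be told apart. Depth ran from 11.4 to 31.8 M counts per library (M, mega) in quadriceps and from 11.0 to 17.8 M in brown fat. For Ppargc1a itself the authors' deposited table gave log2 fold changes of 0.06 ± 0.13 (SE) in quadriceps and 0.0016 ± 0.11 (SE) in brown fat. Only the authors' comparison of the genotypes was analysed here, with 1 row per gene and tissue, so that values of single mice are not given and the replicate error is the deposited standard error. Fold changes are uORF-TAA over wild type. They rest on the assumption that each comparison names its numerator first, and if that fails in brown fat only, every brown fat direction below turns over.

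Endothelial cells line blood vessels and hold them closed with cadherin and claudin junctions. They carry receptors of the Tie family, which answer to angiopoietins and keep vessels quiescent, and an identity set by SOX and ETS transcription factors. Capillaries are dense in brown fat, where they deliver fatty acids, glucose and oxygen to adipocytes and carry heat away, and in muscle they run along the fibres. Apold1 (apolipoprotein L domain containing 1, also called vascular early response gene) is an endothelial gene whose mRNA is induced quickly by stress such as hypoxia in rodent vessels.

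Promoters of Apold1 and Cldn5 are shown because these 2 genes stood highest in uORF-TAA in both tissues. Each stretch holds the 250 bases before and the 50 bases after a RefSeq start on build GRCm38.p6, read 5′ to 3′ on the gene's strand. Capitals mark any of 6 motifs, which were TATAAA on the gene's strand and, on both strands, AGGAAG (a core bound by ETS factors), TGANTCA (AP-1), TGACGTCA (CREB), GTAAACA (forkhead) and the CArG box (serum response factor). None of the marked matches overlap. The Apold1 stretch is chr6:134981751-134982050 on the plus strand, and the Cldn5 stretch is chr16:18776597-18776896 on the plus strand.
Apold1: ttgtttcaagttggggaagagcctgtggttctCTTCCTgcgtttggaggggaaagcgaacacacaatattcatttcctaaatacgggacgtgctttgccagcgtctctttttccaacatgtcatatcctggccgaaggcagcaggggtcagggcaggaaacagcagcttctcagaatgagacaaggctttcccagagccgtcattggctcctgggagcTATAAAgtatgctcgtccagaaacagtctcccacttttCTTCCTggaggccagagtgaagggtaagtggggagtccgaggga
Cldn5: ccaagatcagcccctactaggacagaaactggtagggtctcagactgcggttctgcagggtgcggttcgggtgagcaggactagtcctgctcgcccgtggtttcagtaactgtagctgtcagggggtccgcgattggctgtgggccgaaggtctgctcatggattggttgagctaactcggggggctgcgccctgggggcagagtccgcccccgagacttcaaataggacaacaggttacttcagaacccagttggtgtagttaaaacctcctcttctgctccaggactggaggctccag

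The Apold1 stretch holds TATAAA from 32 bases before the start and AGGAAG, on the opposite strand, from 218 bases before and just past the start. TATAAA was present in 8.88% and AGGAAG in 35.1% of 27025 promoters of this length, taken as 1 per gene. The Cldn5 stretch holds none of the 6 motifs. Promoters were found for 6 of the 10 genes, and AGGAAG was present in at least one promoter of 4 of them (Apold1, Egfl7, Emcn and Tie1). TGANTCA occurred in 7.93%, TGACGTCA in 1.88%, GTAAACA in 3.55% and the CArG box in 1.57% of all promoters, and in none of those of the 6 genes. A match is a stretch of letters and not a proven site.

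The levels of the genes were described first. Levels were set as CPM, with the summed mean counts of each tissue as the total, and divided by the length in kb of the longest transcript, and no test was made because the tissues were normalized separately. Cdh5, the cadherin of endothelial junctions, stood at 21.6 CPM per kb in quadriceps and 134 in brown fat. Pecam1, an adhesion molecule of endothelial cells that platelets and leukocytes carry too, stood at 22.9 CPM per kb in quadriceps and 120 in brown fat. These 2 were the most abundant in each tissue.

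Cldn5, the claudin of endothelial tight junctions, stood at 3.52 CPM per kb in quadriceps and 52.3 in brown fat. Esam, an adhesion molecule of endothelial junctions and platelets, stood at 8.01 in quadriceps and 74.0 in brown fat on the same scale. Egfl7, a secreted protein of the vessel wall, stood at 4.92 in quadriceps and 54.4 in brown fat. Its count is uncertain in both tissues, since in GENCODE M21 it overlaps Gm20532 and the microRNA gene Mir126a on its own strand and shares 64 exonic bases with Agpat2 on the other, whose mean count was 119.6 in quadriceps and 8421 in brown fat. Among the receptors, Tie1 had 3.38 CPM per kb in quadriceps and 30.3 in brown fat, and Tek, the angiopoietin receptor also called Tie2, had 4.79 in quadriceps and 16.8 in brown fat.

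Emcn, a sialomucin of capillary and venous endothelium, stood at 2.72 CPM per kb in quadriceps and 14.7 in brown fat. Sox17, a transcription factor of arterial endothelium, stood at 1.53 in quadriceps and 8.05 in brown fat, and its count is uncertain too, since it shares 804 exonic bases with Gm37587 on the other strand. Apold1 was the least abundant of the 10 in both tissues, at 0.460 CPM per kb in quadriceps and 2.5 in brown fat. Relative to Cdh5 its mean count was 1.90% in quadriceps and 1.66% in brown fat.

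**Figure D1:**
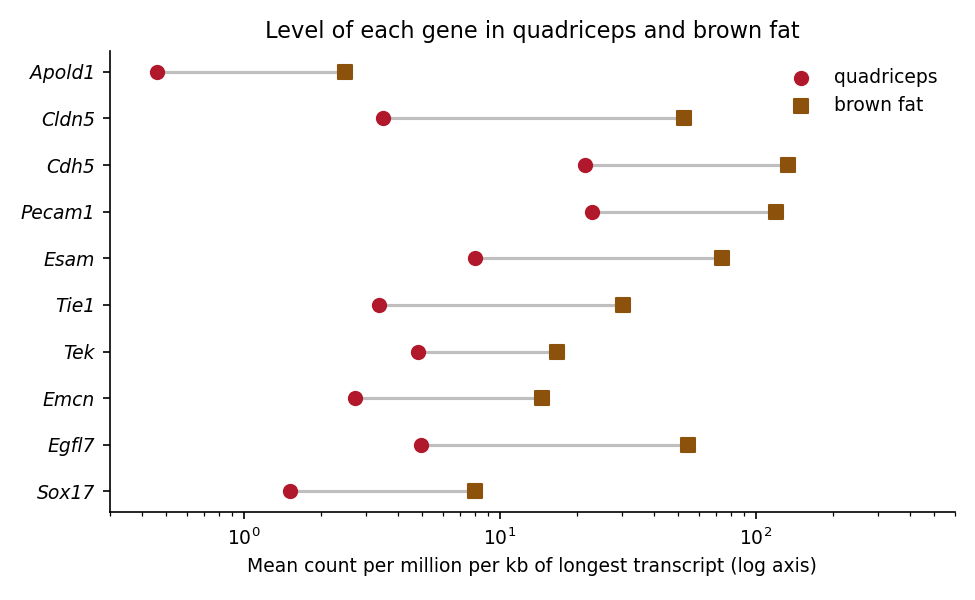
Level of each gene as mean CPM per kb of its longest transcript on a log axis, with quadriceps as circles and brown fat as squares. Each of the 10 genes lies to the left in quadriceps, and Apold1 has the lowest level in each tissue (0.460 in quadriceps, 2.5 in brown fat).

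Every one of the 10 had a smaller share of the counts in quadriceps than in brown fat. The ratio of quadriceps to brown fat ran from 0.0673 for Cldn5 to 0.285 for Tek, with a median of 0.172. Over 11703 genes with a mean count of at least 10 in both tissues the median ratio was 0.488. The 20 most abundant genes took 35.5% of the counts in quadriceps and 13.3% in brown fat, which lowers the share of all other genes in quadriceps. With median-of-ratios scaling the members' median ratio was 0.354. Cldn5 made up 5.77% of the Cdh5 count in quadriceps and 13.8% in brown fat, whereas Tek made up 25.8% in quadriceps and 14.6% in brown fat, so the proportions among the members differed between the tissues.

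The first comparison was uORF-TAA against wild type in brown fat. Apold1 rose in uORF-TAA, with a log2 fold change of 0.60 ± 0.13 (SE, 4 libraries per genotype) and an adjusted p of 0.00552 by DESeq2's Wald test in the authors' deposited table. It was the only member past an adjusted p of 0.05. Over all genes with an adjusted p, 2 of 9272 were called higher (0.0216%) and 6 were called lower (0.0647%), and the count of 1 in 10 was fixed by the choice of Apold1. Its log2 fold change was the highest of all 17973 genes with a p-value in that tissue, and with the sign as deposited it was -0.60 and the lowest. This rank is on deposited values, which are shrunk towards 0 by an amount that depends on the gene, as described below. No rank of all genes was made with the shrinkage undone. Its mean normalized count of 114 lies just above 105.6, the lowest mean at which brown fat genes have an adjusted p in the authors' deposited table. The adjusted p of Apold1 was 0.0107 when all genes with a p-value entered the adjustment.

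In the authors' deposited table Cldn5 had the next largest log2 fold change, 0.27 ± 0.13 (SE), with an unadjusted p of 0.0348 and an adjusted p of 1.00 by DESeq2, and did not pass. At an unadjusted p under 0.05, 165 of 17973 genes were higher (0.918%) and 207 were lower (1.15%), and 2 of the 10 members were higher, Apold1 and Cldn5. With the sign as deposited these members and the 165 genes would be lower instead. The junction genes Cdh5 at 0.06, Pecam1 at 0.01 and Esam at -0.02 lay close to 0 in the authors' deposited table. So did the receptors Tie1 at -0.01 and Tek at -0.04 there. Emcn at 0.01, Egfl7 at 0.05 and Sox17 at 0.03 completed the set in the authors' deposited table.

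For the 8 members other than Apold1 and Cldn5, log2 fold changes in brown fat ran from -0.04 to 0.06, and their deposited 95% intervals lay between -0.27 and 0.30. These intervals come from shrunken values, and wider ones with the shrinkage undone are given below. The smallest unadjusted p among these 8 was 0.598 by DESeq2 in the authors' deposited table. Of the 10 members 7 were above 0, with a median log2 fold change of 0.019, beside 51.2% of all genes above 0 and a median of 0.0015. Without Apold1 the median was 0.013.

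The same comparison in quadriceps did not use the values that chose Apold1. No gene of the tissue was called higher or lower there by DESeq2 (0 of 17521, or 0%, in each direction), and no member was. Apold1 stood at a log2 fold change of 0.23 ± 0.12 (SE), with an unadjusted p of 0.0446 and an adjusted p of 1.00 by DESeq2 in the authors' deposited table. It was the 1 member of 10 that was higher at an unadjusted p under 0.05, which 165 of 17521 genes (0.942%) were, while 185 (1.06%) were lower. Cldn5 followed with 0.26 ± 0.13 (SE) and an unadjusted p of 0.0532 by DESeq2 in the authors' deposited table.

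The other 8 members had log2 fold changes from -0.17 to 0.14 in quadriceps, and none had an unadjusted p under 0.108 by DESeq2 in the authors' deposited table. Emcn had -0.17 ± 0.11 (SE) and Sox17 -0.16 ± 0.13 (SE) there, while Egfl7 had 0.14 ± 0.13 (SE) in the authors' deposited table. Pecam1 had -0.09 ± 0.08 (SE), Esam -0.04 and Tie1 -0.02 in the authors' deposited table. Cdh5 at -0.0056 and Tek at 0.0023 lay nearest to 0 there. Of the 10 members 4 were above 0, with a median of -0.014, beside 51.7% of all genes above 0 and a median of 0.0024.

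**Figure D2:**
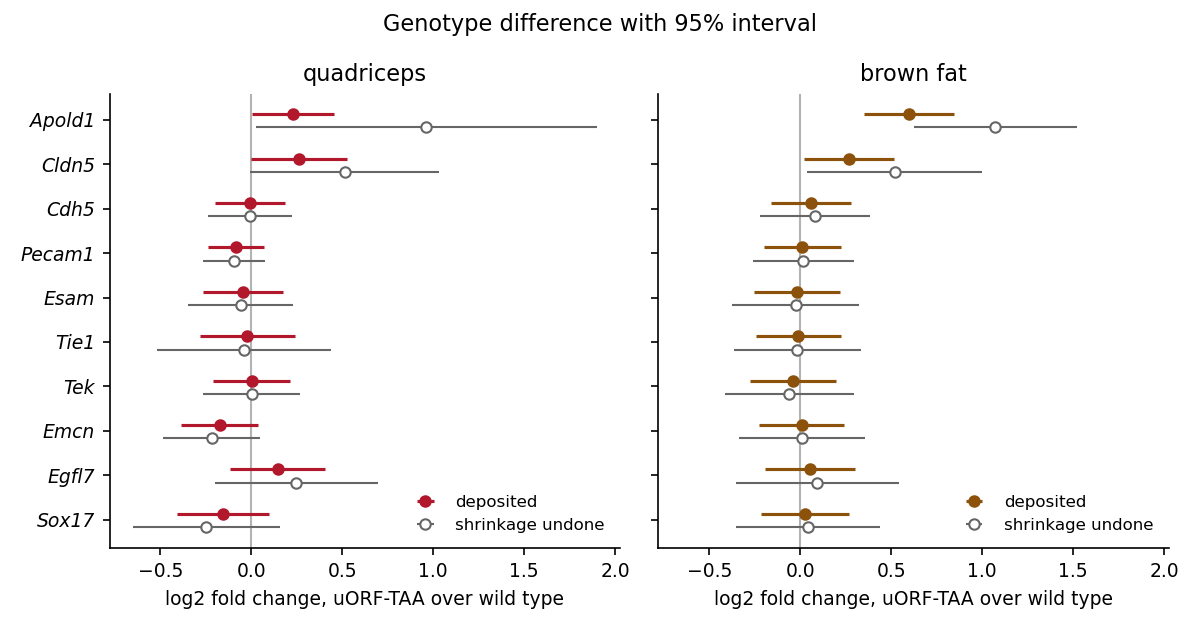
Log2 fold change of uORF-TAA over wild type with its 95% interval for each gene in quadriceps and brown fat, as deposited (filled) and with the shrinkage undone (open). In brown fat the deposited intervals of Apold1 and Cldn5 lie above 0 and those of the other 8 genes cross it.

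The deposited fold changes behave as estimates shrunk towards 0, which no header states, and by how much depends on the gene. In a fit with a normal prior of mean 0 on the fold change, the standard error first grows and then falls again as a gene carries less information, and its ceiling is the prior SD divided by 2. Such a ceiling is present, with 618 genes within 0.1% of the largest standard error of 0.135 in quadriceps and 571 genes within 0.1% of 0.127 in brown fat. The prior SD was therefore taken as 0.269 in quadriceps and 0.255 in brown fat, and each fold change was solved back to its value before shrinkage. The Wald statistic and its p do not change in this step. A standard error below the ceiling has 2 solutions, one with more and one with less information, and the one with more was used unless its error fell below what counting alone allows.

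**Figure D3:**
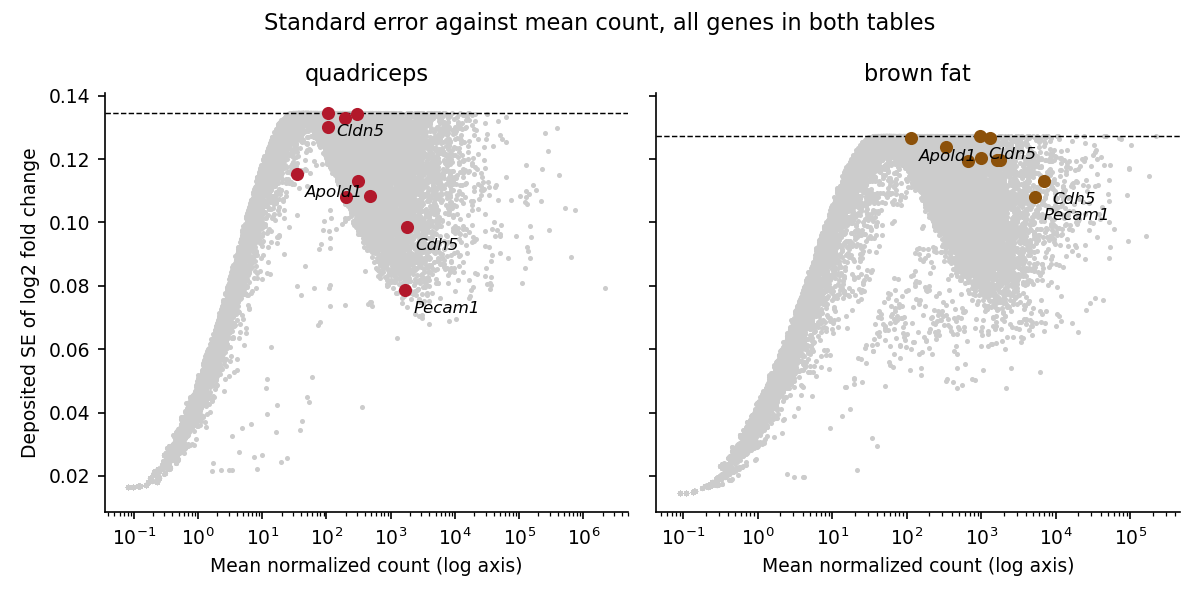
Deposited standard error of the log2 fold change against mean normalized count on a log axis, with all genes in grey, the 10 endothelial genes coloured and the largest standard error as a dashed line. Apold1 in quadriceps lies below the grey band at its mean count of 34.5, with a standard error of 0.115, and Cldn5 lies at the ceiling in both tissues.

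Apold1 in quadriceps was the member shrunk most. Its solution with more information has an error of 0.152, under the 0.170 that counting error alone gives at a mean count of 34.5, so the other solution was taken. Before shrinkage its log2 fold change was 0.96 ± 0.48 (SE), of which the deposited value kept 24.1%. In brown fat the solved value was 1.07 ± 0.23 (SE), of which 55.6% was kept, and the solution with less information gave 1.34 ± 0.28. On this scale Apold1 was 1.95-fold higher in uORF-TAA quadriceps, with a 95% interval from 0.02 to 1.90 on the log2 scale. In brown fat it was 2.10-fold or 2.54-fold higher.

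Group means follow from the mean count and the solved fold change, taking both groups as equal in size. Apold1 came to 45.6 normalized counts in uORF-TAA quadriceps and 23.4 in wild-type quadriceps. In brown fat it came to 155 in uORF-TAA and 73.7 in wild type, or 164 in uORF-TAA and 64.6 in wild type with less information. Whether single mice of the genotypes overlap was not analysed here.

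Cldn5 gave nearly the same solved value in both tissues, 0.51 ± 0.27 (SE) in quadriceps and 0.52 ± 0.25 (SE) in brown fat on the log2 scale. Its group means were 123 in uORF-TAA and 86.5 in wild type in quadriceps. In brown fat they were 1119 in uORF-TAA and 781 in wild type. The other 8 members ran from 0.842-fold to 1.19-fold in quadriceps and from 0.960-fold to 1.07-fold in brown fat with the shrinkage undone. With less information they ran from 0.535-fold (Pecam1) to 1.27-fold (Egfl7) in quadriceps, where Emcn came to 0.551-fold, and from 0.922-fold (Tek) to 1.17-fold (Cdh5) in brown fat.

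**Figure D4:**
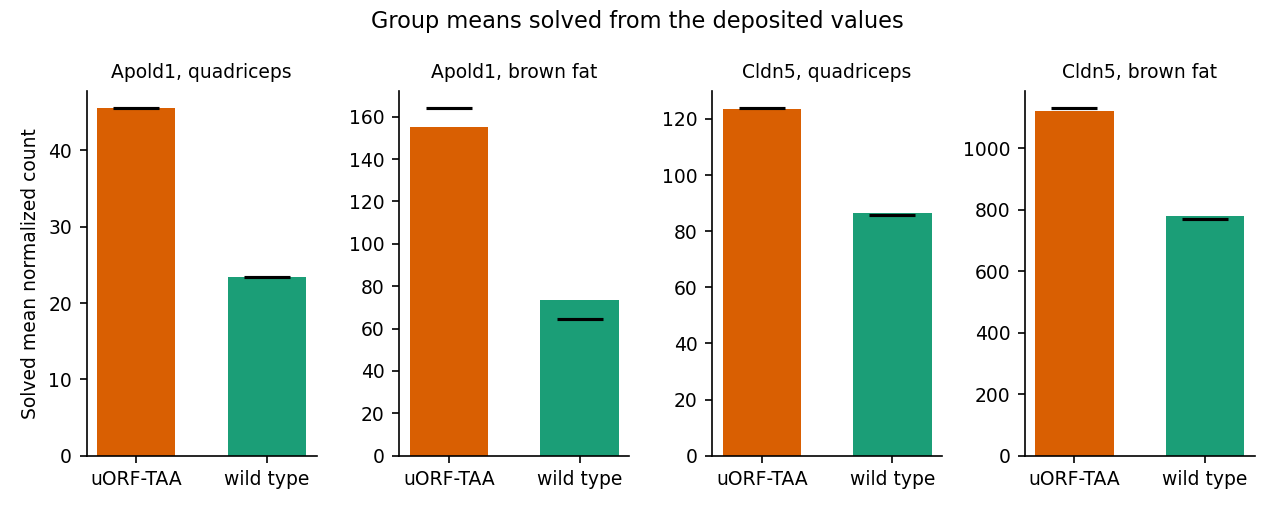
Mean normalized counts of Apold1 and Cldn5 in uORF-TAA (left bar of each panel) and wild type (right bar), solved from the deposited values, with black marks for the solution with less information. Error bars are not drawn because values of single libraries were not analysed. In every panel the uORF-TAA bar is the higher one, as with 155 against 73.7 for Apold1 in brown fat.

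The spread between libraries that the deposited errors imply depends on the solution taken. Expressed as a coefficient of variation beyond counting error, it was 43.7% for Apold1 in quadriceps, from the solution with less information. For the 9 others there, with more information, it was between 8.16% for Pecam1 and 24.1% for Cldn5. With less information these 9 ran from 24.9% for Cldn5 to 81.8% for Pecam1, on both sides of Apold1. In brown fat it ran from 13.8% for Pecam1 to 23.9% for Cldn5, with 20.3% for Apold1, all with more information. With less information Cldn5 came to 25.6%, Apold1 to 26.3% and Pecam1 to 45.0% there. The authors' fit may already have drawn each gene's spread towards that of genes with a like mean count.

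The tissues were then compared by the difference of the fold changes, quadriceps less brown fat, over the root of the summed squared errors. No gene passed (0 of 16844 genes at an adjusted p of 0.05, or 0%), and 195 genes (1.16%) had an unadjusted p under 0.05. Apold1 was the 1 member among these, with a difference of -0.37 ± 0.17 (SE), an unadjusted p of 0.0326 by this normal test and a Benjamini-Hochberg adjusted p of 1.00 across all genes. Brown fat values chose Apold1, so this difference is a description. With the shrinkage undone the difference was -0.11 ± 0.53 (SE), with a 95% interval from -1.15 to 0.93. For Cldn5 the deposited difference was -0.0081 ± 0.19 (SE), with a 95% interval from -0.37 to 0.36. Among the remaining 8 members the smallest unadjusted p was 0.261, for Emcn, by the normal test made across all genes.

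Both Apold1 and Cldn5 had a log2 fold change over 0.2 in each tissue, as 17 of 16844 genes had (0.101%). With the brown fat sign as deposited neither gene would be over 0.2 in both tissues, and 5 genes of 16844 would (0.0297%). The limit of 0.2 was chosen after these values were seen. Apold1 was chosen on its brown fat result, which enters this count, so the count is a description. The labels do not say whether the tissues came from the same mice, which could share differences. By the distance between their pairs of deposited fold changes, the 5 genes nearest to Apold1 among 9275 whose mean count reached 50 in each tissue were Rreb1, Wdr6, B3galt2, Dagla and Ifi27l2a. Turning the brown fat sign of all genes leaves these distances as they are. Rreb1 was nearest, at 0.19 in quadriceps and 0.45 in brown fat in the authors' deposited table. This likeness rests on 2 comparisons only, and none of the 5 passed the test in either tissue. It also rests on values shrunk by an amount that depends on the gene, and Apold1 kept only 24.1% in quadriceps. The mean count of Apold1 itself in quadriceps, 34.5, lies below the 50 asked of the other genes.

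**Figure D5:**
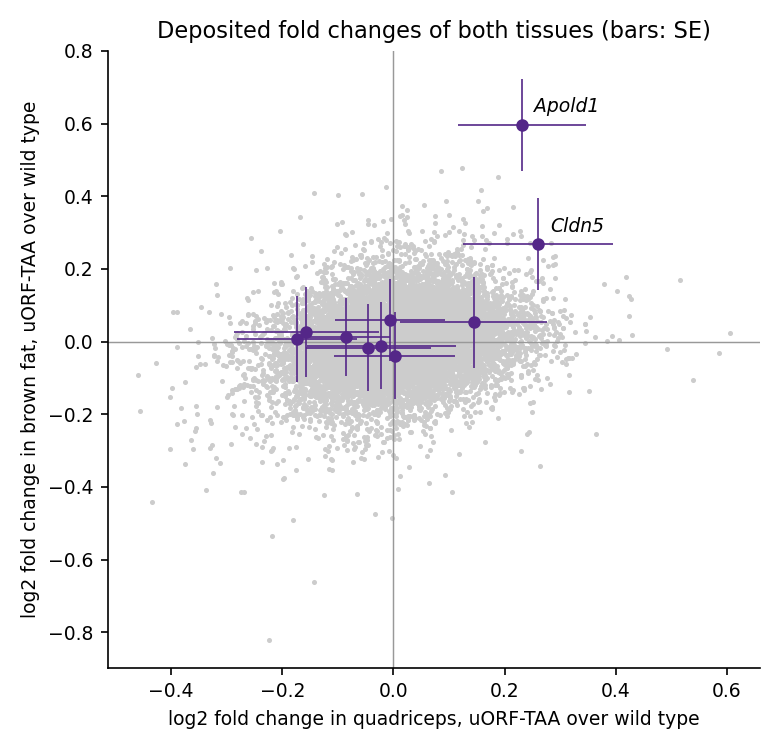
Deposited log2 fold change in brown fat against that in quadriceps, uORF-TAA over wild type, with all genes in grey and the 10 endothelial genes in purple with bars of 1 SE. Apold1 (0.23 in quadriceps, 0.60 in brown fat) and Cldn5 (0.26 in quadriceps, 0.27 in brown fat) lie apart from the other 8 genes.

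Other genes of endothelial cells were read as lists, which were put together with earlier results known. Tie1 and Tek of the 10 stand also in the Tie pathway list, and Sox17 in the arterial list. In brown fat only genes with an adjusted p could pass. Among 24 further genes shared by most endothelium, 12 were above 0 in quadriceps with a median log2 fold change of -0.0040, and 18 in brown fat with a median of 0.042. Of all genes, 51.7% lay above 0 in quadriceps and 51.2% in brown fat. None of the 24 passed an adjusted p of 0.05 by DESeq2, with 24 having an adjusted p in quadriceps and 22 in brown fat. Each tissue had 1 of them with an unadjusted p below 0.05. The quadriceps gene was lower, beside 1.06% of all genes, and the brown fat gene was higher, beside 0.918%. These were Sox7, an endothelial transcription factor, at -0.27 in quadriceps and Palmd at 0.30 in brown fat in the authors' deposited table. Eng, a co-receptor of BMP and TGF-beta ligands, had 0.23, and Flt1, a VEGF receptor, had -0.17 in brown fat in the authors' deposited table.

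Capillary and fat-handling genes had 7 of 12 members above 0 in quadriceps (median 0.045) and 9 of 12 in brown fat (median 0.068), and 0 passed in either. Fabp4 of this list, with a mean count of 180557 in brown fat, stands also in the adipocyte list. In whole organs the values of this list cannot be credited to endothelial cells alone. Meox2, a transcription factor of muscle and heart capillaries, had 0.29 ± 0.13 (SE) in quadriceps and 0.21 ± 0.12 (SE) in brown fat in the authors' deposited table. Rgcc had -0.21 ± 0.13 (SE) in quadriceps and 0.13 ± 0.12 (SE) in brown fat there. Car4 had -0.16 ± 0.12 (SE) in quadriceps and -0.13 ± 0.12 (SE) in brown fat in the authors' deposited table. Arterial genes had 2 of 9 above 0 in quadriceps and 3 of 9 in brown fat, where Hey1, a Notch target, had -0.29 ± 0.13 (SE) in the authors' deposited table. Venous genes had 3 of 7 above 0 in quadriceps and 4 of 7 in brown fat. Lymphatic genes had 2 of 6 measured members above 0 in each tissue. In quadriceps all of these measured genes had an adjusted p and none passed. In brown fat 6 of 9 arterial, 4 of 7 venous and 2 of 6 lymphatic genes had one and none of those passed, while Hey1 had none.

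Basement membrane genes had 4 of 9 above 0 in quadriceps (median -0.019) and 7 of 9 in brown fat (median 0.081). In brown fat 1 of them passed, beside 2 of all 9272 genes called higher (0.0216%) and 6 called lower. This was Lama4, the laminin chain of the endothelial basement membrane, which rose by 0.32 ± 0.07 (SE, log2) in the authors' deposited table (adjusted p = 0.0181 by DESeq2). In quadriceps Lama4 stood at 0.02 ± 0.12 (SE) there. Lama4 and Apold1 are the 2 genes called higher in brown fat. The list was put together with earlier results known, so its count is a description. In the Tie pathway 4 of 8 genes were above 0 in each tissue, and 0 passed of 8 with an adjusted p in quadriceps and 5 in brown fat. The angiopoietin gene Angpt1 was at 0.17 in quadriceps and 0.05 in brown fat in the authors' deposited table. Foxo1, a transcription factor that Tie2 signalling restrains, had -0.27 ± 0.13 (SE) in quadriceps and -0.41 ± 0.12 (SE) in brown fat there, with adjusted p-values of 1.00 and 0.291 by DESeq2 in the authors' deposited table.

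Immediate early genes were read because Apold1 is described as one in vessels. In quadriceps 11 of 26 were above 0 (median -0.025), with 3 higher and 3 lower at an unadjusted p under 0.05, beside 0.942% of all genes higher and 1.06% lower. In brown fat 16 of 23 genes with a p-value were above 0 (median 0.046), with 1 higher and 2 lower at that level, beside 0.918% of all genes higher and 1.15% lower. Fos at 0.09, Egr1 at 0.07 and Junb at 0.04 had no p-value in brown fat in the authors' deposited table. They are also above 0 but outside these counts. None passed an adjusted p of 0.05 by DESeq2, of 26 with an adjusted p in quadriceps and 18 in brown fat. Btg2, an antiproliferative gene, had the smallest p in quadriceps, at -0.40 ± 0.13 (SE), and stood at 0.08 in brown fat in the authors' deposited table. Dusp1, a phosphatase of MAP kinases, had 0.38 ± 0.13 (SE) in quadriceps and 0.16 ± 0.08 (SE) in brown fat in the authors' deposited table. Nr4a1, an orphan nuclear receptor, had 0.32 ± 0.13 (SE) in quadriceps and 0.07 in brown fat there.

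Maff, a small MAF transcription factor, had the smallest p of the immediate early genes in brown fat, at -0.32 ± 0.12 (SE), and stood at -0.32 ± 0.13 (SE) in quadriceps in the authors' deposited table. Fosl2, an AP-1 subunit, had -0.33 ± 0.13 (SE) in quadriceps and -0.22 ± 0.10 (SE) in brown fat there. Klf4, a transcription factor that flow induces in endothelium, had -0.04 in quadriceps and 0.28 ± 0.12 (SE) in brown fat in the authors' deposited table. The immediate early genes thus lay on both sides of 0 in each tissue. Like those of the other lists, these values are as deposited and were not solved back. They are shrunk by an amount that depends on the gene, so their sizes cannot be set beside the solved values of Apold1.

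Markers of other cells were read beside these values. In quadriceps 9 of 12 mural cell genes were below 0 (median -0.079) and 4 were lower at an unadjusted p under 0.05, beside 1.06% of all genes. Myh11, the smooth muscle myosin, was lowest of these at -0.35 ± 0.10 (SE), with an adjusted p of 0.660 by DESeq2 in the authors' deposited table. In brown fat 7 of 12 mural cell genes were above 0 (median 0.059). Des of this list had a mean count of 50955 in quadriceps, and in whole organs the list's values cannot be credited to mural cells alone. Blood and immune markers had medians of -0.0079 in quadriceps and 0.039 in brown fat, each over 9 measured genes. Adipocyte markers had medians of 0.020 in quadriceps and 0.061 in brown fat. Fibroblast markers had 0.015 in quadriceps and 0.081 in brown fat. Muscle fibre markers had -0.017 in quadriceps and -0.010 in brown fat, and together had 217941 CPM in quadriceps and 11752 CPM in brown fat. None of these markers with an adjusted p passed in either tissue (in brown fat 2 of 9 blood and immune, 9 of 10 adipocyte and 11 of 12 mural cell genes had one), and their part in the values of Apold1 and Cldn5 was not tested.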

How the data were processed

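Messenger RNA of 16 libraries, 4 per genotype and tissue, was sequenced from single ends of stranded libraries, per the labels' protocols. The submitters' processing notes name STAR 2.5.1b, DESeq2 1.10.1, DESeq and mm9, without roles. Annotation, read counter and strand setting were not given in the sources used here. Per the file headers, the authors deposited for each gene a mean normalized count (a signal over the 8 libraries of a tissue), a log2 fold change with its standard error, the Wald statistic (a score), a p-value and an adjusted p-value. Signs of the brown fat comparison were reversed, so that uORF-TAA is the numerator. The authors' deposited DESeq2 test across all genes was the one used, credited to the authors throughout, and calls are an adjusted p under 0.05.

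The members and gene lists were chosen with earlier results of these data known. Besides the members and Ppargc1a, genes named are at most 4 of smallest p per list and tissue and the 5 nearest to Apold1; values of a gene in the second tissue were added after they were seen. Library size factors, from 0.543 to 1.51 in quadriceps and 0.859 to 1.39 in brown fat, were recovered from genes with 1 read in 1 library. Intervals are normal 95% intervals, and error per library could not be separated into technical and animal parts. Undoing the shrinkage was tested on simulated counts of 3000 genes per tissue, where 1 of its 2 solutions lay within 0.1 of the maximum likelihood log2 fold change for 99.8% of genes in each. The closer solution was taken for each simulated gene, so the rule for choosing between the 2 was not tested. Lengths and overlaps come from GENCODE M21, promoters from RefSeq. Python 3.11.15, pandas 2.3.3, NumPy 2.4.6, SciPy 1.17.1 and Matplotlib 3.10.9 were used.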

Additional observations from a re-analysis of the deposited data

How the results depend on the processing

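Apold1 in brown fat stayed past the threshold in each alternative run, with adjusted p-values from 7.32e-06 (empirical null) to 0.0107 (all genes with a p-value), and no member passed in quadriceps in any. These brown fat runs reuse the Wald statistic that chose Apold1, so they are a description and support nothing by themselves. Without Apold1, 0 members were called in brown fat. All genes called in brown fat numbered 4 at a threshold of 0.01, 8 at 0.05 and 46 with the empirical null. With the brown fat sign as deposited, the tissue difference of Apold1 was 0.83 (adjusted p = 0.00516 by the normal test across all genes), which made 1 member that differed, and the differences of Cldn5 (0.53), Cdh5 (0.054) and Tek (-0.037) also changed sign; 5 genes in place of 17 were then over 0.2 in both tissues, a count added after the data were seen. Of the single-gene values outside Apold1, 176 kept direction and call and 4 turned, these 3 and Tek in quadriceps with the empirical null (-0.0019). The median ratio of levels, quadriceps over brown fat, was 0.354 with median-of-ratios scaling and 0.233 without the 20 most abundant genes of each tissue. The solution with less information, chosen after the data were seen, would imply spreads up to 81.8% for Pecam1 in quadriceps. No paired analysis was possible because only the authors' comparisons, and no values per library, were analysed; for the same reason no library could be left out. Apold1 rests on about 288 reads over the 8 quadriceps libraries and 930 over the 8 of brown fat, which limits its precision.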
